A study of Mus musculus with 6 samples.

Results

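The cytosolic ribosomal protein genes encode the proteins that, with ribosomal RNA, make up the small and the large subunit of the ribosome. They were taken by name: protein-coding genes called Rpl or Rps plus a number, with an optional letter or l, plus Rpsa, Rplp0, Rplp1 and Rplp2. Rps6k kinases and pseudogenes marked -ps were left out, and the rule used no measured value. It found 80 genes among the 43432 in the table, of which 49 belong to the large and 31 to the small subunit. Read strictly, the rule leaves out Rps3a1 and the fusion gene Fau, which also encode ribosomal proteins.

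A cell makes ribosomal proteins in matched amounts, because each ribosome holds them in fixed proportion and unassembled copies are degraded. Their messages carry a run of pyrimidines at the 5′ end, the terminal oligopyrimidine (TOP) tract, through which the kinase complex mTORC1 and the binding protein Larp1 control their translation. In myeloid cells the demand for ribosomes is high in dividing precursors and low in mature neutrophils, which have stopped growing.

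RNA was sequenced in bulk from splenic CD11b+ cells, a myeloid sort, of 6 Rag1 KO mice on the C57BL/6J background at day 8 post transfer. Such mice form no T or B lymphocytes themselves and keep their myeloid cells. All had received 2D2 CD4+ T cells, which recognise myelin oligodendrocyte glycoprotein (MOG), plus B cells that had been grown in the iGB system, a germinal centre-like culture, and loaded with MOG. In the WT iGB6 group (n = 3) the B cells were wild type and carried pMSCV-IRES2-eGFP with Il6, the gene of the cytokine interleukin 6. In the IgHMOG iGBGFP group (n = 3) they had the IgHMOG genotype and an empty pMSCV vector, so genotype and vector cannot be told apart. Replicate 1 was female and replicates 2 and 3 were male in each group. The age of the mice was not given.

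The reads assigned to genes, recovered from the deposited counts, numbered 5955142, 7564254 and 6396013 in WT iGB6 and 6490868, 6611212 and 5196339 in IgHMOG iGBGFP. The CD11b+ sort was checked on 8 defining myeloid markers, Itgam and Lyz2 among them, which summed to 7.05 to 9.70% of normalized counts in WT iGB6 and 6.53 to 8.07% in IgHMOG iGBGFP. All values below are normalized counts, in which the authors divided reads by a size factor per library. Tests were made with limma on log2(normalized count + 1), and a gene was called at an adjusted p below 0.05.

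The sequence of Rps27, the gene on which the results turn, is shown first, beside its relatives. Rps27 encodes a zinc-finger protein of the small subunit. Rps27l is its close paralog, and Rps27rt a copy without introns. The first 90 bases of each coding sequence follow (GENCODE M21, GRCm38), with capitals where a base differs from Rps27.
Rps27: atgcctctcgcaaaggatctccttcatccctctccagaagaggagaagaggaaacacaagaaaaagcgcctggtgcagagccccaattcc
Rps27rt: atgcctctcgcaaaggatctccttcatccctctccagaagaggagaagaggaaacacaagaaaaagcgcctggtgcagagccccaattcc
Rps27l: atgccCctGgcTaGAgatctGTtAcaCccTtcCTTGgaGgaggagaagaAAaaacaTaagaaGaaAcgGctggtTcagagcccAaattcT
Rps27 lies on chr3:90212522-90213651 (minus strand), Rps27rt on chr9:114982366-114982739 (minus strand) and Rps27l on chr9:66946086-66949516 (plus strand). Over the whole coding sequence of 252 bases, Rps27rt differed from Rps27 at 0 bases and Rps27l at 60. The longest stretch identical between Rps27l and Rps27 was 11 bases. Coding reads of Rps27 and Rps27rt therefore have the same letters, whereas those of Rps27 and Rps27l do not.

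The transcription starts are shown for Rps27 and its paralog, and for members at either end of the range of group differences described below. RefSeq promoters (GRCm38.p6) matched 60 of the 80 genes, with 72 starts. Each line holds 30 bases, with the annotated start as base 16, and capitals mark a C followed by at least 4 more pyrimidines that begins within 10 bases of the start.
Rps27, chr3:90213634-90213663, minus strand: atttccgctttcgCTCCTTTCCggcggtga
Rps27l, chr9:66946071-66946100, plus strand: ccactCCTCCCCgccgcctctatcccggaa
Rpl27a, chr7:109519180-109519209, plus strand: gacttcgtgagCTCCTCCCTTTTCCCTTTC
Rplp2, chr7:141447636-141447665, plus strand: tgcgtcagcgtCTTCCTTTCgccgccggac
Rpl37, chr15:5116598-5116627, plus strand: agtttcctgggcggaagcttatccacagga
Rpl31, chr1:39367836-39367865, plus strand: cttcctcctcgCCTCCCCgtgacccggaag
Rpl28, chr7:4792950-4792979, plus strand: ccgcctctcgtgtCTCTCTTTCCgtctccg
Rpl4, chr9:64173372-64173401, plus strand: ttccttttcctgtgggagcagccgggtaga
Such a run stood at 55.6% of the members' starts and at 30.7% of all 32851 starts. It was found both in members that were low in WT iGB6 (Rps27, Rpl27a, Rplp2) and in members at the other end (Rpl31, Rpl28). No such run began within 10 bases of the annotated start of Rpl37 or Rpl4. Of the members examined but not printed, Rpl11 and Rpl37a at the low end also had none. At the other end Rpsa had none, while Rpl6 had a run. The bases printed for Rpl4 do hold a C followed by at least 4 more pyrimidines. It begins further before the start and is therefore not marked. The core of the ETS factor motif, CCGGAAG on either strand from 250 bases before to 50 bases after the start, was in 36.1% of the members' windows and 8.86% of all windows. TATAAA was in 8.33% of the members' windows and 13.6% of all.

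Of the 80 genes, 76 passed the filter of a mean normalized count of at least 10 and were tested, 45 of the large and 31 of the small subunit. The other 4 are Rpl24 and the paralogs Rpl3l, Rpl10l and Rpl39l. The small-subunit gene Rps27 was the only member called, and it was lower in WT iGB6. With 1 of 76 members lower and 0 higher, set against 3.37% of all 9923 tested genes lower and 2.75% higher, members were not called more often than other genes. At an unadjusted limma p below 0.05, 6 members were lower and 0 higher, where 12.3% of all genes were lower and 12.3% higher. Neither edgeR nor DESeq2 on the recovered reads called another member, nor did the authors' deposited table, although they called 6.11%, 9.58% and 8.61% of all genes.

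Rps27 had 304, 419 and 387 normalized counts in WT iGB6, against 450, 778 and 662 in IgHMOG iGBGFP. Every WT iGB6 library lay below every IgHMOG iGBGFP library, with means of 370 ± 59.7 and 630 ± 166 (SD, n = 3 each). The log2 fold change was -0.74 (SE 0.17), with a limma adjusted p of 0.0361. The adjusted p was 0.0322 with edgeR and 0.00938 with DESeq2, and the authors' deposited table gave a log2 fold change of -0.71 with an adjusted p of 0.0108. The call was lost in 6 of 21 alternatives, with a limma adjusted p of 0.148 without the sex term and 0.107 in males alone. It was also lost without IgHMOG iGBGFP replicate 1 (limma adjusted p 0.107), replicate 2 (0.180) or replicate 3 (0.114), and without WT iGB6 replicate 1 (0.109). Without replicate 1 of either group the remaining female has no partner. Those fits therefore repeat the comparison in males alone, with the same log2 fold change of -0.83. The direction was the same in all 21, from -0.95 to -0.65. With no overlap between the groups, leaving out a library could not have reversed it, and dropping the sex term left the log2 fold change at -0.74. The log2 difference was -0.83 in males and -0.57 in the female pair.

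The count of Rps27 is uncertain, because 98.6% of the 50-base windows of its principal transcript also occur in Rps27rt. Rps27rt itself was listed at 16.6, 13.4 and 14.6 in WT iGB6 and at 15.3, 22.4 and 24.0 in IgHMOG iGBGFP, which is 2.80 to 5.19% of the sum of both. Added up, the counts of both genes were 320, 433 and 402 in WT iGB6 and 465, 800 and 686 in IgHMOG iGBGFP. The groups again did not overlap, and the log2 difference of this sum was -0.73. With so small a part from Rps27rt, the sum could hardly have differed from Rps27 alone. It cannot show whether shared reads were left out or counted elsewhere. Windows of Rps27 were found in 9 other genes, Rps27rt among them.

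The paralog Rps27l, a p53 target gene whose protein can take the place of Rps27 in the ribosome, showed no such separation. It had 159, 205 and 190 normalized counts in WT iGB6 and 157, 279 and 200 in IgHMOG iGBGFP. The groups overlapped, with a log2 fold change of -0.16 (SE 0.20) and a limma adjusted p of 0.667. The log2 ratio of Rps27 to Rps27l was 0.93, 1.03 and 1.02 in WT iGB6 and 1.52, 1.48 and 1.72 in IgHMOG iGBGFP. These ratios did not overlap, and their means differed by -0.58. Rps27 set against the median of all tested members gave a log2 difference of -0.48. Both are descriptions without a test, since Rps27 was singled out by its own separation.

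**Figure D1:**
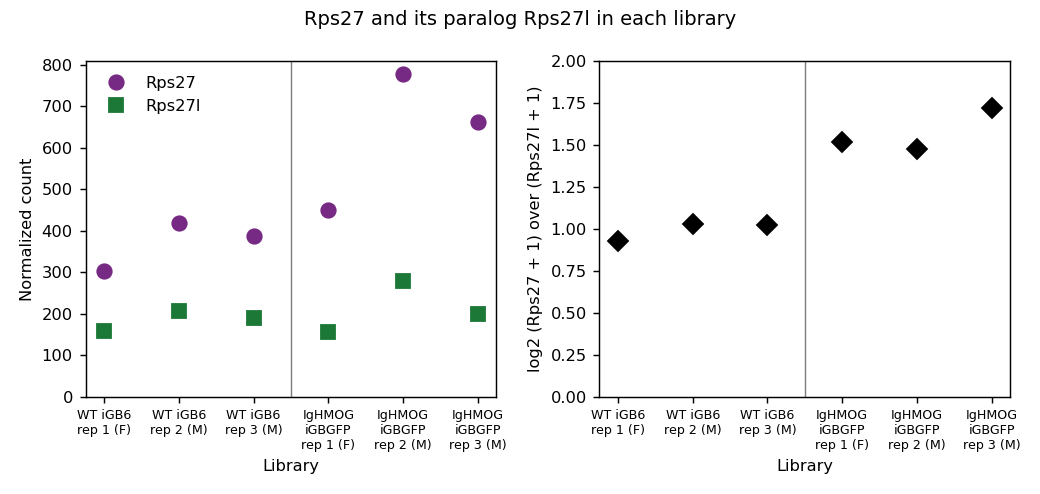
Normalized counts of Rps27 and Rps27l (left) and their log2 ratio (right) in each of the 6 libraries, 3 of WT iGB6 and 3 of IgHMOG iGBGFP, 1 point per library. Rps27 lies at 304 to 419 in WT iGB6 and 450 to 778 in IgHMOG iGBGFP, the points of Rps27l overlap, and the ratio is at most 1.03 in WT iGB6 and at least 1.48 in IgHMOG iGBGFP.

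Across all tested members the differences were small and mostly in one direction. The log2 fold change was below 0 for 66 of 76 members (48.4% of all tested genes), with a median of -0.16 where that of all genes was 0.02. Values ran from -0.74 to 0.20, with a median SE of 0.19, and the difference was smaller than its SE in 43 members. The 31 small-subunit genes had a median of -0.19 with 27 below 0, and the 45 tested large-subunit genes a median of -0.13 with 39 below 0. In 5 members, Rps27, Rps29, Rpl11, Rpl37 and Rpl37a, all WT iGB6 libraries lay below all IgHMOG iGBGFP libraries, where 11.4% of all genes did so. No tested member had all WT iGB6 libraries above, where 12.2% of all tested genes did. The choice of these genes by their separation came after the values were seen, and only Rps27 passed the test.

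**Figure D2:**
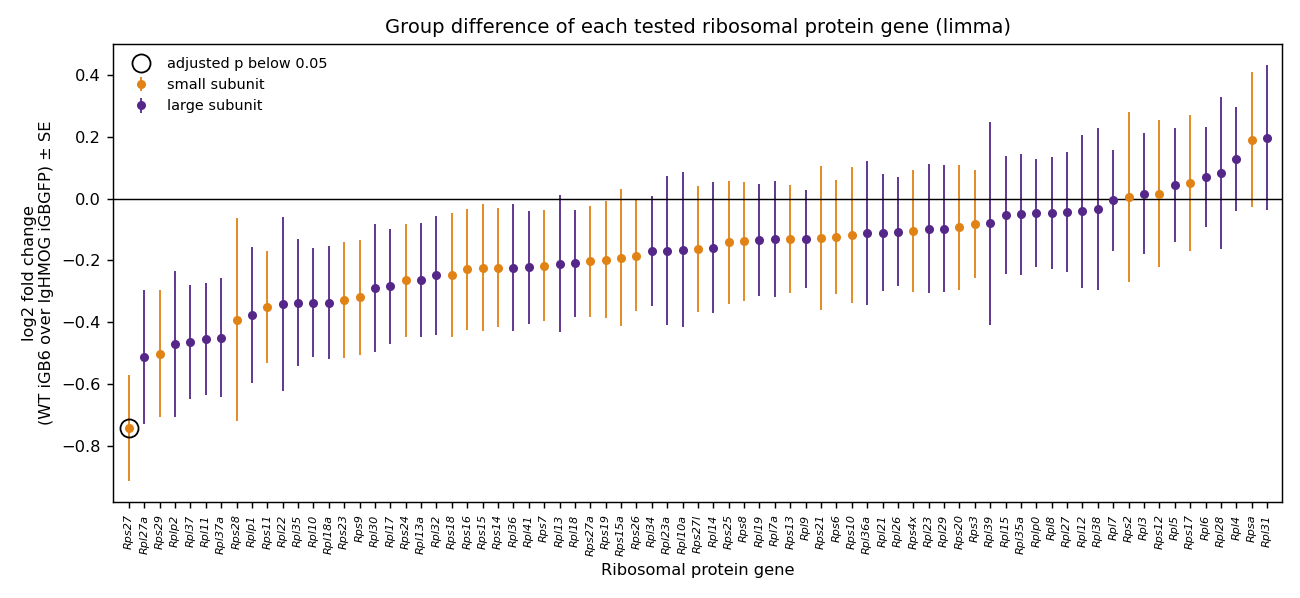
Log2 fold change (WT iGB6 over IgHMOG iGBGFP) with its standard error for 75 tested ribosomal protein genes, in order of size and coloured by subunit, with a ring where the adjusted p was below 0.05. Rps27 at -0.74 is the only ringed gene, and 65 of the 75 points lie below 0.

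After Rps27, the small-subunit gene with the lowest log2 fold change was Rps29, a zinc-binding protein near the path of the messenger RNA. It had 74.7, 90.0 and 101 normalized counts in WT iGB6 and 115, 136 and 125 in IgHMOG iGBGFP. The groups did not overlap, but the gene did not pass (log2 fold change -0.50, SE 0.21, limma adjusted p 0.171). Rps6, the substrate of S6 kinase, had 581, 755 and 579 in WT iGB6 and 534, 862 and 715 in IgHMOG iGBGFP. Its groups overlapped, and its log2 fold change was -0.12 (SE 0.19). Rps27a, which is made as a fusion with ubiquitin, had 695, 835 and 700 in WT iGB6 and 809, 1015 and 754 in IgHMOG iGBGFP, with a log2 fold change of -0.20 (SE 0.18). At the other end stood Rpsa, also known as the laminin receptor, with 440, 526 and 367 in WT iGB6 and 287, 505 and 392 in IgHMOG iGBGFP. Its groups overlapped as well (log2 fold change 0.19, SE 0.22).

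Among the large-subunit genes none passed the test. Rpl27a, a core protein of the subunit, had 96.0, 164 and 123 normalized counts in WT iGB6 and 127, 243 and 183 in IgHMOG iGBGFP. Its log2 fold change was -0.51 (SE 0.22, limma adjusted p 0.180), the lowest of the large subunit, and the groups overlapped. Rpl37, a small zinc-binding protein, had 222, 231 and 227 in WT iGB6 and 263, 378 and 309 in IgHMOG iGBGFP. Its log2 fold change of -0.46 (SE 0.19) did not pass (limma adjusted p 0.157). Rpl37a, another zinc-binding protein, had 230, 271 and 267 in WT iGB6 and 281, 457 and 330 in IgHMOG iGBGFP (log2 fold change -0.45, SE 0.19). For both genes the WT iGB6 libraries were close together and the spread lay in IgHMOG iGBGFP, where replicate 2 was the highest.

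Rpl5 and Rpl11 bind 5S ribosomal RNA together, and as that particle they can also bind Mdm2, the inhibitor of p53. Rpl11 had 262, 296 and 263 normalized counts in WT iGB6 and 302, 450 and 388 in IgHMOG iGBGFP, without overlap (log2 fold change -0.45, SE 0.18, limma adjusted p 0.160). Rpl5 had 287, 342 and 277 in WT iGB6 and 235, 339 and 310 in IgHMOG iGBGFP, with overlap (log2 fold change 0.04, SE 0.19). Neither gene passed the test, and the difference between them was not tested.

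The stalk of the large subunit, which brings elongation factors to the ribosome, consists of Rplp0 at its base and pairs of Rplp1 and Rplp2. Rplp0 had 2925, 3721 and 3008 normalized counts in WT iGB6 and 2640, 3693 and 3700 in IgHMOG iGBGFP (log2 fold change -0.05, SE 0.17). Rplp1 had 285, 335 and 270 in WT iGB6 and 286, 545 and 362 in IgHMOG iGBGFP (log2 fold change -0.38, SE 0.22). Rplp2 had 104, 171 and 110 in WT iGB6 and 142, 229 and 162 in IgHMOG iGBGFP (log2 fold change -0.47, SE 0.24, limma adjusted p 0.255). All 3 overlapped between groups, and none passed.

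The 5 highest log2 fold changes were all smaller than their SE. Rpl31, which lies at the rim of the exit tunnel, had 174, 168 and 184 normalized counts in WT iGB6 and 132, 215 and 126 in IgHMOG iGBGFP (log2 fold change 0.20, SE 0.24, limma adjusted p 0.650). Rpl4, which lines the tunnel itself, had 4075, 4696 and 4156 in WT iGB6 and 3405, 4139 and 4309 in IgHMOG iGBGFP (log2 fold change 0.13, SE 0.17). Rpl28, a protein that budding yeast lacks, had 192, 239 and 182 in WT iGB6 and 162, 279 and 156 in IgHMOG iGBGFP (log2 fold change 0.08, SE 0.25). These values overlapped throughout, as did those of Rpl6, with a log2 fold change of 0.07 (SE 0.16), and of Rpsa, given above. IgHMOG iGBGFP libraries lay on both sides of the WT iGB6 values for Rpl31 and Rpl28.

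In their summed share, libraries of one group differed more than the groups did. The 80 genes took 0.542, 0.777 and 0.544% of normalized counts in WT iGB6, against 0.544, 0.970 and 0.923% in IgHMOG iGBGFP. IgHMOG iGBGFP replicate 1 thus sat with WT iGB6 replicates 1 and 3. The means were 0.621 ± 0.135% and 0.812 ± 0.233% (SD, n = 3 each), and the difference of -0.19 percentage points is within the spread of the IgHMOG iGBGFP libraries. Of the 76 tested members, 7, 57 and 14 were above their own mean in the WT iGB6 libraries and 4, 75 and 63 in the IgHMOG iGBGFP libraries. IgHMOG iGBGFP replicate 2 was the highest library for 61 members, and IgHMOG iGBGFP replicate 1 the lowest for 38. Most members were thus high or low in the same libraries. The median deviation from the gene's own mean was -0.19, 0.08 and -0.16 (log2) in WT iGB6 and -0.27, 0.37 and 0.15 in IgHMOG iGBGFP, where that over all tested genes stayed between 0.00 and 0.03.

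**Figure D3:**
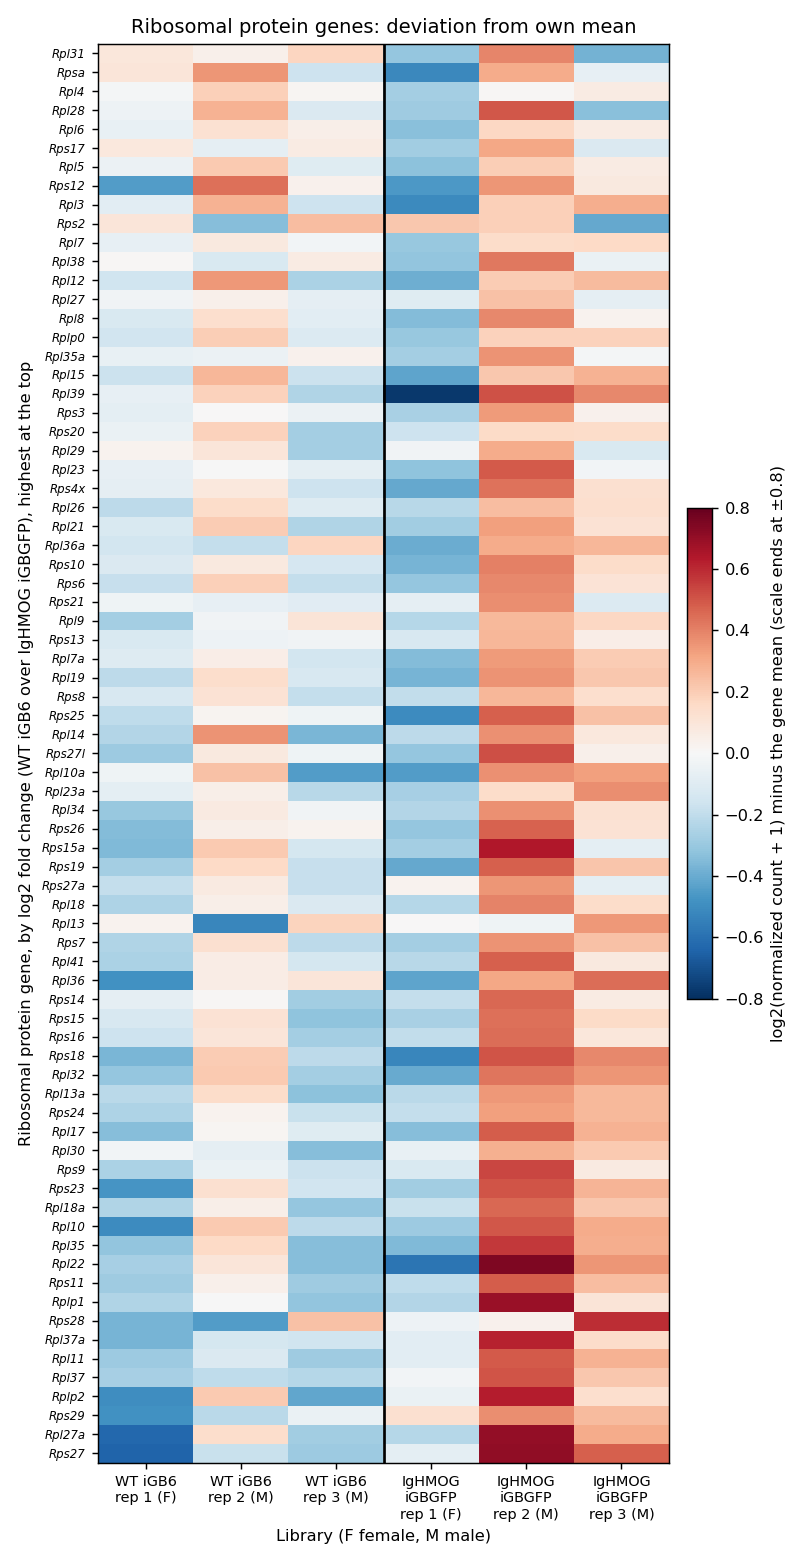
Deviation of 75 tested ribosomal protein genes from their own means over the 6 libraries, on the scale log2(normalized count + 1), 1 row per gene ordered by log2 fold change and 1 column per library, WT iGB6 left of IgHMOG iGBGFP. Red marks values above the gene's mean and blue below; 74 of these 75 are above their mean in IgHMOG iGBGFP replicate 2 and 4 in IgHMOG iGBGFP replicate 1.

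Within a group the members varied less in WT iGB6, with a median coefficient of variation of 13.2%, than in IgHMOG iGBGFP, with 23.6%. That of all tested genes was not computed, so whether this is particular to the members was not tested. The summed small-subunit counts were 0.629, 0.612 and 0.622 of the large-subunit counts in WT iGB6 and 0.667, 0.717 and 0.623 in IgHMOG iGBGFP. Of the 76 tested members, Rps28 and Rpl13 were lowest in WT iGB6 replicate 2, where 57 members were above their mean. Rps28 had 22.5, 21.3 and 34.9 normalized counts in WT iGB6 and 28.6, 30.2 and 45.0 in IgHMOG iGBGFP. Rpl13 had 505, 346 and 562 in WT iGB6 and 497, 484 and 633 in IgHMOG iGBGFP. These genes were picked after their values were seen, and 55.4% and 80.3% of their windows also occur in other genes.

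The split by library followed sex in part, since both female libraries were low. In males alone the median log2 difference of the members was -0.30, with 71 of 76 below 0 (49.5% of all genes), and 0 members were called by limma where 1.35% of all genes were. At an unadjusted p below 0.05, 2 members were lower and 0 higher in males, where 9.56% of all genes were lower and 8.79% higher. In the female pair the median was 0.06, with 27 of 76 below 0 (48.4% of all genes). The interaction of sex and group in limma called 0 members and 0 genes in all. At an unadjusted p below 0.05 it held 0 members, where it held 1.49% of all genes. With 1 female per group, sex cannot be told apart from anything else that set the replicates numbered 1 apart.

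Other features of the libraries moved with the share of ribosomal protein genes. The 10 most abundant genes of each library took 32.8, 25.1 and 34.9% of normalized counts in WT iGB6 and 29.1, 19.5 and 17.3% in IgHMOG iGBGFP. The 3 libraries with the highest shares of ribosomal protein genes were those in which the 10 most abundant genes took least. A fixed set, the 10 genes with the highest mean over all libraries, was then removed from each total. The members' shares were then 0.806, 1.04 and 0.829% in WT iGB6 and 0.768, 1.19 and 1.10% in IgHMOG iGBGFP. IgHMOG iGBGFP replicate 2 was again the highest and its replicate 1 the lowest, with a mean difference of -0.13 percentage points. The number of genes detected ran from 14816 to 16361 in WT iGB6 and from 15893 to 17013 in IgHMOG iGBGFP. The part of the number of genes detected in the members' differences was not tested.

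Markers of myeloid stages and of other cells also differed between the groups. Of 10 tested markers of neutrophil precursors (Mpo, Elane and Prtn3 among them), 9 were higher in WT iGB6, and their summed share was 0.358 to 0.572% there and 0.139 to 0.256% in IgHMOG iGBGFP. Of 12 division genes 9 were higher (0.0733 to 0.145% in WT iGB6, 0.0510 to 0.0636% in IgHMOG iGBGFP). Of 11 tested markers of mature neutrophils 3 were lower and 0 higher, while 4 had log2 fold changes above 0, up to 0.73 for Ly6g (summed share 0.894 to 1.28% in WT iGB6, 1.39 to 1.85% in IgHMOG iGBGFP). Basophil and mast cell markers were lower in 5 of 7 (0.00657 to 0.0235% in WT iGB6, 0.0354 to 0.131% in IgHMOG iGBGFP), and conventional dendritic cell markers in 4 of 6 tested (0.000688 to 0.00369% in WT iGB6, 0.00605 to 0.0278% in IgHMOG iGBGFP). No marker of these 5 lists was at 0 in any library. Of 8 tested erythroid markers 0 were called by limma, edgeR or DESeq2, but all 8 were above 0 and 7 had an unadjusted limma p below 0.05 (0.0283 to 0.0756% in WT iGB6, 0.0145 to 0.0482% in IgHMOG iGBGFP). T cell markers took 0.00136 to 0.00177% in WT iGB6 and 0.00256 to 0.00289% in IgHMOG iGBGFP, and 0 of 3 tested were called by limma, 1 by edgeR and 1 by DESeq2, with 2 lower at an unadjusted p below 0.05. Cd3e was at 0 in all 3 WT iGB6 libraries and Trac in 2. Of 4 tested megakaryocyte and platelet markers, Ppbp was higher and Itga2b lower (0.00472 to 0.00606% in WT iGB6, 0.00406 to 0.00647% in IgHMOG iGBGFP). The share of ribosomal protein genes overlapped between the groups. The part of these cells in the members' differences was not tested, and in bulk RNA fewer cells of a type and less RNA per cell cannot be told apart.

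**Figure D4:**
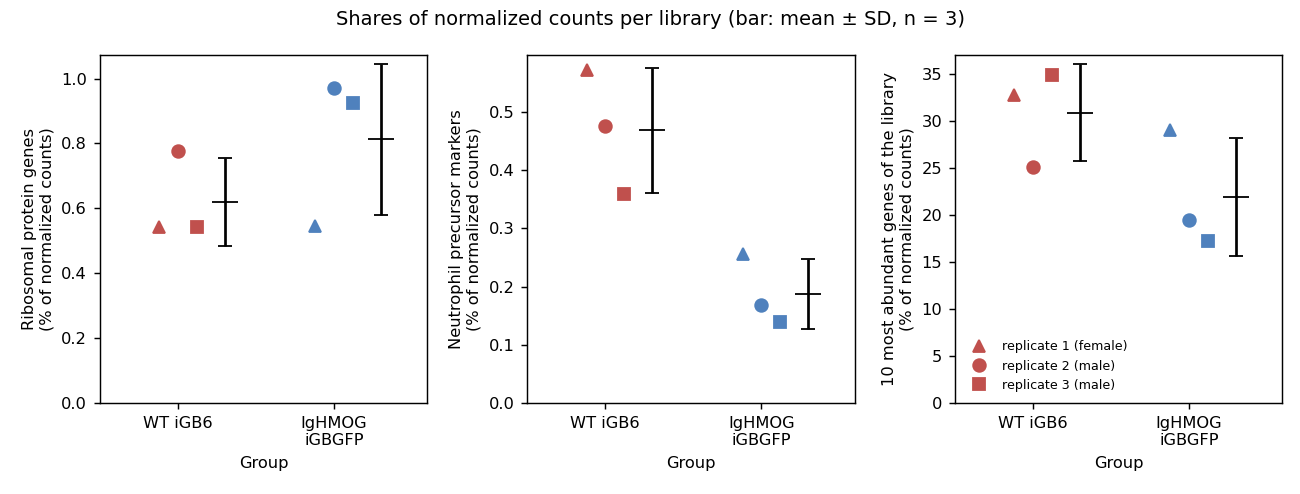
Share of normalized counts, in percent, held by the 80 ribosomal protein genes (left), by neutrophil precursor markers (middle) and by the 10 most abundant genes (right), with 1 point per library, marker shapes for the replicate number and its sex, and bars for the mean ± SD (n = 3). The ribosomal protein share of IgHMOG iGBGFP replicate 1 (0.544%) lies with WT iGB6 replicates 1 and 3 (0.542 and 0.544%), while the precursor shares do not overlap.

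Levels can be compared between genes only per length, here as the mean normalized count over all 6 libraries per kb of exon. On that scale Rpl4 (2058), the stalk base Rplp0 (1978) and Rps9 (1347), a protein near the entry of the messenger RNA, were highest. The median of the tested members was 192, and the lowest was Rps28 with 17.7. Exon length here joins all annotated exons of a gene. It was 1719 bases for Rps28, 2522 for Rps9 and 2007 for Rpl4, against 437, 914 and 1538 in their principal transcripts. The order of the genes, also at both ends, depends on this choice of length. Rps9 had 2799, 3221 and 2962 normalized counts in WT iGB6 and 3063, 4829 and 3509 in IgHMOG iGBGFP, with overlap (log2 fold change -0.32, SE 0.19). A ribosome holds most of these proteins in equal number. Rpl24, which fell under the filter at 4.58 per kb, had between 2 and 6 reads in every library, and 81.7% of its windows also occur in other genes, 69.4% in Gm28037 alone.

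Shared sequence touches many of these counts. The median member had 49.3% of its 50-base windows in transcripts of another gene, 39 of 80 had at least 50%, and Rpl3l and Rpl39l were among those with none. Across the 80 genes, the level per kb and the share of such windows had a Spearman correlation of 0.03, given as a description only. The 38 tested members with less than 50% shared had a median log2 fold change of -0.19, with 35 below 0. The 38 with more had a median of -0.13, with 31 below 0. Pseudogenes of ribosomal proteins marked -ps in their names, 257 in the table, together held 0.00353 to 0.00539% of normalized counts in WT iGB6. In IgHMOG iGBGFP they held 0.00361 to 0.00776%. Sharing genes with other names are not in this sum, such as Gm10288, which holds 55.9% of the windows of Rpl11.

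**Figure D5:**
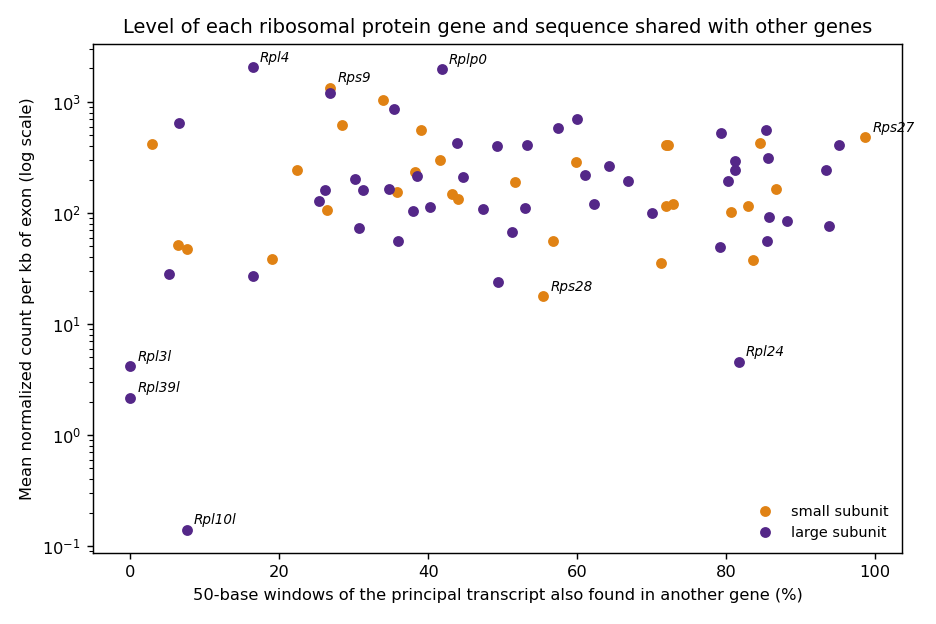
Mean normalized count per kb of exon (log scale, all 6 libraries) against the percentage of 50-base windows of the principal transcript that also occur in another gene, 1 point for each of 79 ribosomal protein genes, coloured by subunit. Levels from 17.7 to 2058 among the tested members occur over the whole range of sharing, and Rps27 stands at the right end with 98.6%.

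The tissue-restricted paralogs were near the limit of detection. Rpl10l, an intronless copy of Rpl10 known from testis, had 1 read in IgHMOG iGBGFP replicate 2 and 0 in the other libraries, where up to 3 reads remain possible from counting error alone. Its parent Rpl10, on chromosome X, had 785, 1289 and 964 normalized counts in WT iGB6 and 909, 1576 and 1370 in IgHMOG iGBGFP (log2 fold change -0.34, SE 0.18). Rpl39l, also known from testis, had 2, 4 and 3 reads in WT iGB6 and 0, 1 and 1 in IgHMOG iGBGFP. Its parent Rpl39, a tunnel protein on chromosome X, had 35.6, 42.6 and 31.5 normalized counts in WT iGB6 and 21.5, 53.5 and 49.0 in IgHMOG iGBGFP (log2 fold change -0.08, SE 0.33). Rpl3l, the form of striated muscle, had 6, 5 and 2 reads in WT iGB6 and 6, 16 and 8 in IgHMOG iGBGFP. Its parent Rpl3, which sits near the peptidyl transferase centre, had 913, 1175 and 865 normalized counts in WT iGB6 and 681, 1109 and 1187 in IgHMOG iGBGFP (log2 fold change 0.02, SE 0.20). None of the parents passed the test, and the paralogs were not tested. Rps4x, also X-linked, had a log2 fold change of -0.10 (SE 0.20).

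The machinery around the ribosome was described with lists chosen apart from the members. Of 29 tested initiation factors 0 were called in limma, with a median log2 fold change of 0.03, and of 11 elongation and release factors 0, with a median of -0.13. At an unadjusted p below 0.05 these lists held 4 factors higher and 3 lower, and DESeq2 called 1 initiation factor, Eif3f, where edgeR called 0. Eif3f, a subunit of initiation factor eIF3, had 22.5, 30.8 and 22.5 normalized counts in WT iGB6 and 45.0, 109 and 39.0 in IgHMOG iGBGFP. It did not overlap between groups and was lower in WT iGB6 by DESeq2 (adjusted p 0.0348), but did not pass in limma (log2 fold change -1.17, adjusted p 0.0965). Eef2k, the kinase that inhibits elongation factor eEF2, had 88.9, 118 and 73.1 in WT iGB6 and 180, 147 and 114 in IgHMOG iGBGFP (log2 fold change -0.65, limma adjusted p 0.149).

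Other messages known to carry a TOP tract were not called by limma either. Of 17 tested, 0 passed (2 were lower and 0 higher at an unadjusted p below 0.05, edgeR called 0 and DESeq2 1), and the median log2 fold change was -0.09, with 13 below 0. In males alone all 17 were below 0, with a median of -0.26, and in the female pair 6 were, with a median of 0.11. Tpt1, the translationally controlled tumour protein, had 312, 279 and 280 normalized counts in WT iGB6 and 341, 545 and 380 in IgHMOG iGBGFP (log2 fold change -0.51, limma adjusted p 0.171). Gas5, a non-coding TOP gene that hosts small nucleolar RNAs, had 115, 144 and 192 in WT iGB6 and 181, 248 and 294 in IgHMOG iGBGFP (log2 fold change -0.68, limma adjusted p 0.0714). Of the 4 host genes tested, 0 passed in limma, edgeR or DESeq2, and 2 were lower at an unadjusted p below 0.05.

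Among 21 tested genes of mTORC1 and S6 kinase control, limma and edgeR called Mlst8 alone, a subunit of the mTOR complexes, which was higher in WT iGB6. DESeq2 and the authors' deposited table called it and Deptor. It had 779, 519 and 686 normalized counts in WT iGB6 and 575, 261 and 253 in IgHMOG iGBGFP. The groups overlapped through replicate 1 of IgHMOG iGBGFP, and the log2 fold change was 0.95 (SE 0.21, limma adjusted p 0.0324). No gene of the translation lists passed without the sex term, in males alone, or without IgHMOG iGBGFP replicate 2 or 3. The median of the 21 genes was -0.17, with 14 below 0. Deptor, an inhibitor of mTOR, had 27.3, 80.5 and 25.9 in WT iGB6 and 49.1, 111 and 187 in IgHMOG iGBGFP. It passed in DESeq2 (adjusted p 0.0217) but not in limma (log2 fold change -1.36, adjusted p 0.0752). Sesn2, another inhibitor of mTORC1, had 358, 455 and 173 in WT iGB6 and 580, 634 and 531 in IgHMOG iGBGFP and did not pass in limma (log2 fold change -0.93, limma adjusted p 0.0987).

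Of 14 tested chaperones and export factors of ribosomal proteins and of 9 factors of ribosome rescue and quality control, 0 were called in limma, with median log2 fold changes of -0.04 and 0.13. At an unadjusted p below 0.05, 1 of the chaperones was higher and 1 lower, and 1 of the rescue factors was lower; edgeR and DESeq2 called 0. That factor was Zfp598, a ubiquitin ligase that senses collided ribosomes, with 11.9, 18.2 and 13.5 normalized counts in WT iGB6 and 31.7, 31.0 and 30.0 in IgHMOG iGBGFP (log2 fold change -1.06, limma adjusted p 0.0856). The related genes outside the naming rule were not called either: Fau, Rpl36al, Rpl22l1 and Rpl7l1 had log2 fold changes from -0.33 to 0.29, with 0 at an unadjusted p below 0.05. Of the 20 members whose human counterparts are mutated in Diamond-Blackfan anaemia, an inherited failure of red cell production, Rps27 alone was called, and the median was -0.19 with 17 below 0.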

How the data were processed

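Bulk RNA-seq libraries of 6 mice were grouped by their labels, and each library is a separate mouse. Per the labels' protocols, cDNA from 8 to 16 ng of RNA was amplified for 17 cycles and libraries from 20 ng of it for 9 cycles, without molecular identifiers, so copies count as reads and counting error is a lower limit. The submitters' processing notes name STAR 2.7.10b, DESeq2 2.11.40.7, featureCounts 2.0.3, cutadapt 4.4 and GRCm38. The annotation, strandedness and handling of reads matching several genes were not given in the sources used here. Without strand, overlapping genes cannot be told apart.

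The deposited signal values are normalized counts, which the authors made by dividing read counts by a size factor per library; multiplying by it gave whole reads for 100% of values within 0.001. The authors' deposited table of their DESeq2 comparison holds per gene a log2 fold change with standard error, the Wald score, and raw and adjusted p-values, without a header, so the columns were identified from the values. Symbols came from GENCODE M21.

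The test was limma 3.58.1 (variance trend, terms sex and group, two-sided) on log2(normalized count + 1) for 9923 genes with a mean of at least 10, with Benjamini-Hochberg adjustment over all of them. The pseudocount of 1 understates the change of low genes. edgeR 4.0.16 (quasi-likelihood) and DESeq2 1.42.0 on recovered reads were alternatives, and the limma script was tested on simulated data. Shared sequence was measured as the 50-base windows of a member's principal transcript found in transcripts of other genes.

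The members and lists were chosen with earlier results of these data known. Genes named with values were the called members, the 5 largest log2 fold changes each way, the 3 most abundant per length, those under the filter, paralog pairs, the stalk proteins, Rps27a, Rpl5, Rpl11 and Rps6, and up to 4 genes with the smallest p per other list. Of the members, 1 is not reported here by name or in the plots of single genes.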

Additional observations from a re-analysis of the deposited data

How the results depend on the processing

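Over 21 alternatives the median log2 fold change of the members lay between -0.37 and -0.06, with 53 to 76 members below 0. It was -0.06 without IgHMOG iGBGFP replicate 2 and -0.07 without WT iGB6 replicate 3. Leaving out replicate 1 of either group gave -0.30, which repeats the comparison in males alone. Scaling to total counts moved the median of all genes to -0.19 and that of the members to -0.37, and 18.9% of the calls were then higher in WT iGB6, against 45.0% before. The difference of the summed share, -0.19 percentage points, was -0.33 without IgHMOG iGBGFP replicate 1 and -0.11 without IgHMOG iGBGFP replicate 2, its range over the alternatives. Of 22 named members, 11 changed sign under at least 1 alternative without being called, and only Rps27 changed its call. The members called lower numbered 0 without the sex term and 0 in males alone, and 0 to 1 with 1 library left out. Calls over all genes numbered 607, but 1079 without the filter, 10 without the sex term, 1443 with library weights, 951 with DESeq2, 134 in males alone and 4 to 1083 with 1 library left out, 4 without IgHMOG iGBGFP replicate 2. Genes called in the other translation lists numbered 1, but 4 without the filter, 0 without the sex term, 5 with library weights, 3 with DESeq2, 0 in males alone, 2 in the authors' deposited table and 0 to 6 with 1 library left out. The cause was not tested.

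With the replicate number as a block, 1001 genes were called, 4 of them in the other translation lists, and the members called stayed at 1. Same-numbered libraries of the groups had correlations of their deviations of 0.482, 0.350 and 0.0407. Those of differently numbered libraries ran from -0.515 to 0.287. The main fit did not pair the samples by number, and whether same-numbered mice belong together was not tested. Each library correlated best with its own number in replicates 1 and 2 of WT iGB6, but not in replicate 3. Counts of under 50 reads per library, as for Rps28, limit what can be seen for the lowest members.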
